A study of Mus musculus with 10 samples.

Results

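Glutathione S-transferases of mouse oocytes were followed through 10 genes, Gstp1 and Gstp2 of the pi class, Gsta4 of the alpha class, Gstm5 and Gstm1 of the mu class, Gstt1 (theta), Gstz1 (zeta), Gsto1 (omega), Gstk1 (kappa) and the membrane-bound Mgst3. For each gene the transcript cluster annotated to it, alone or together with a paralogue, was taken, and the cluster with the highest mean over all arrays was to be used where there were several. Every gene had a single cluster, so the 10 genes gave 10 clusters of the 65956 tested. The Gstp2 cluster is annotated to Gstp2 and the pi-related locus Gstp-ps together, and the other 9 clusters to their gene alone.

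Glutathione S-transferases join the tripeptide glutathione to reactive electrophiles, among them the aldehydes formed when lipids are oxidised, and the conjugates are then exported from the cell. The cytosolic enzymes fall into classes by sequence (alpha, mu, pi, theta, zeta, omega), the kappa enzyme sits in mitochondria and peroxisomes, and the microsomal enzymes are a separate family of membrane proteins. Glutathione is known in oocytes as a store of reducing power that builds up before ovulation and is used in the egg to open the disulphide bonds of sperm chromatin.

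RNA came from pools of mouse oocytes freed of follicular cells. The 4 groups were WT and Patl2-/- oocytes at the GV stage (2 and 3 arrays) and at the MII stage (2 and 3 arrays). GV oocytes, arrested in prophase I, were collected 44 h after 5 units of PMSG, with 20 to 32 oocytes in a sample. By the study's collection protocol they came from punctured ovaries, in medium with dibutyryl cyclic AMP to stop maturation. For MII oocytes, taken from the ampullae, that protocol names no such agent, so its part cannot be told apart from stage. MII oocytes, arrested in metaphase II after ovulation, were collected, according to the labels, 12 h after HCG given to PMSG-primed females, with 28 to 46 oocytes in a sample. The study's own text gives a later collection time and a higher minimum of MII oocytes than the labels, and the conflict could not be settled here. All 4 groups thus came from hormone-stimulated females. Patl2 encodes an oocyte protein of the PAT1 family of RNA-binding proteins. The Patl2-/- animals are homozygous for an allele that carries an inserted LacZ cassette and lacks exon 7. It derives from C57BL/6NTac mice crossed with mice that carry Cre under the adenovirus EIIa promoter, active in the early embryo. Cre removed exon 7, so that the deletion is carried by every tissue and not by oocytes alone. The background of the Cre mice and the strain of the WT females are not stated in the study's text. The samples of a group are called biological replicates, but which females gave which sample is not stated in the sources used here. A p-value below therefore refers to the spread among these samples, which may be technical.

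Values are RMA log2 expression levels from 1-colour Affymetrix Clariom D arrays, where all probes of a gene are combined into a transcript cluster. A difference of 1 on this scale is a 2-fold change. Each array was made from 250 pg of RNA, and the arrays were quantile-normalised. A level is therefore a share of the RNA and not an amount per oocyte. The study reports less RNA per oocyte at MII than at GV. A transcript with an unchanged amount per oocyte can thus give a higher value at MII, and rises and falls below are those of the share. The level of a cluster depends on its probes, so levels are compared between samples and never between genes. Background was marked on each array by the level that 90% of its 5222 negative control probes stayed under, which was 6.14 to 6.46. Within groups, r between arrays was 0.989 to 0.994. The Patl2 cluster measured 11.31 in WT and 7.71 in Patl2-/- oocytes at GV, and 8.64 and 6.37 at MII. All 12 oocyte markers were measured, and 11 lay above background on every array. The log2 of their summed signal was 19.49 to 19.58 at GV, 19.14 and 19.21 in WT MII and 19.30 to 19.36 in Patl2-/- MII samples. Zp3, a zona pellucida gene, was called higher in Patl2-/- oocytes at MII (0.53, limma adjusted p = 0.0488), and 5 of the 12 were called lower during maturation in each genotype. Among clusters at a mean level of at least 8, 1.87% were called higher in Patl2-/- oocytes at MII. Of these clusters, 20.5% were called lower during maturation in WT and 25.4% in Patl2-/- oocytes. Of 22 granulosa and cumulus markers 20 were measured, and the log2 of their summed signal was 10.58 and 11.91 in WT GV, 11.61 to 11.82 in Patl2-/- GV, 10.39 and 10.42 in WT MII and 10.60 to 11.62 in Patl2-/- MII samples. Of the 20, Nr5a2 (9.06 to 9.99) and Kitl (6.65 to 7.77) lay above background on all 10 arrays, Inha (5.41 to 11.04) on 9, Hsd17b1 (5.66 to 8.47) on 6, Cyp11a1 (5.58 to 9.83) on 5, Fshr and Fst on 3 each, Tnfaip6 on 2 and Ptgs2 on 1, and the others, Foxl2, Amh and Amhr2 among them, on none. None was called between genotypes, and during maturation 2 were called lower in WT, and 4 lower and 1 higher in Patl2-/- oocytes. Of all clusters, 5.19% were called lower and 1.96% higher in WT maturation, and 7.14% and 3.37% in Patl2-/- maturation. Of 16 theca, stroma, vessel and blood markers 13 were measured, with summed signals of 10.05 to 10.71, and only Pecam1 (9.58 to 10.32) and the macrophage marker Cd68 (6.25 to 7.43, on 9 arrays) rose above background. Cd68 was lower in Patl2-/- than in WT oocytes without overlap at both stages (-0.70 at GV and -0.76 at MII, in the average -0.73 with a limma adjusted p of 0.0546), and was not called.

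The promoters of 3 members are shown because Gstp1 and Gstp2 have closely related clusters that moved side by side, while the Gstm5 cluster had a genotype difference near 0. The letters are from RefSeq (GRCm38.p6), 250 bases before to 50 after the annotated start, and capitals mark the AP-1 core letters TGANTCA and the letters TATAA, both searched on both strands (the AP-1 core reads the same on both).
Gstp1, chr19:4037863-4038162, minus strand: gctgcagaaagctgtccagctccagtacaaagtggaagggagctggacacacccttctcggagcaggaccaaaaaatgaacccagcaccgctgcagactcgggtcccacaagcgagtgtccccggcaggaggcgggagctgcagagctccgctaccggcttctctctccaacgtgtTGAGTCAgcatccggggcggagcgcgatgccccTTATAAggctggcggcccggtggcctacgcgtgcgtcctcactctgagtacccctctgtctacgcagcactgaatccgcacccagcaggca
Gstp2, chr19:4042172-4042471, minus strand: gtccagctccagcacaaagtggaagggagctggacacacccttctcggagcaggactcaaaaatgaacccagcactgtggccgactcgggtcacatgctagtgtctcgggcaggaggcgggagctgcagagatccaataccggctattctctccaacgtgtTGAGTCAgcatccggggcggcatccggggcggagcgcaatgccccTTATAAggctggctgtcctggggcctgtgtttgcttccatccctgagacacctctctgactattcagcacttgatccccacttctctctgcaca
Gstm5, chr3:107895604-107895903, plus strand: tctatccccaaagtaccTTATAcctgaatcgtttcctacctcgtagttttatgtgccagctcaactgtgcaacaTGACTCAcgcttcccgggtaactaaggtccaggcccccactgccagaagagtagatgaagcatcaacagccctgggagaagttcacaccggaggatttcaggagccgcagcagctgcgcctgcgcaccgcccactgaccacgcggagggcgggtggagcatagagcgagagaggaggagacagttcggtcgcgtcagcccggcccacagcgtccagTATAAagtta

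The Gstp1 and Gstp2 promoters were identical at 246 of 319 aligned columns (77.1%), with a longest shared run of 43 bases. The same alignment gave 49.2% between Gstp1 and Gstm5, with a longest shared run of 7 bases. Both pi promoters held TGAGTCA, which begins at position -74 from the start in Gstp1 and at -89 in Gstp2, and TATAA, which begins at -40 and -43. Gstm5 held TGACTCA at -176, TGACNNNGC, the core of the antioxidant response element, at -42, and TATAA at 40, after the start, besides its reverse at -233. Of all 32851 promoters of this length in the table, 7.81% held the AP-1 core, 12.4% the antioxidant response element core and 24.9% TATAA. Promoters were found in this table for 9 of the 10 members, Gsta4 being the other one, and the AP-1 core was in those of Gstp1, Gstp2 and Gstm5. A match of letters is a description and not a bound site.

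The 10 clusters fell into 3 sets by their height over background. Gstp1, Gstp2, Gsta4, Gstm5 and Mgst3 lay above it on all 10 arrays, with levels from 8.99 to 13.54. Gstk1 lay above it on 7 arrays and Gstz1 on 2. Gstm1, Gstt1 and Gsto1 lay below it on every array, with levels of 3.83 to 5.47, so no level can be given for them beyond not being above background, and differences of clusters near background are compressed.

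**Figure D1:**
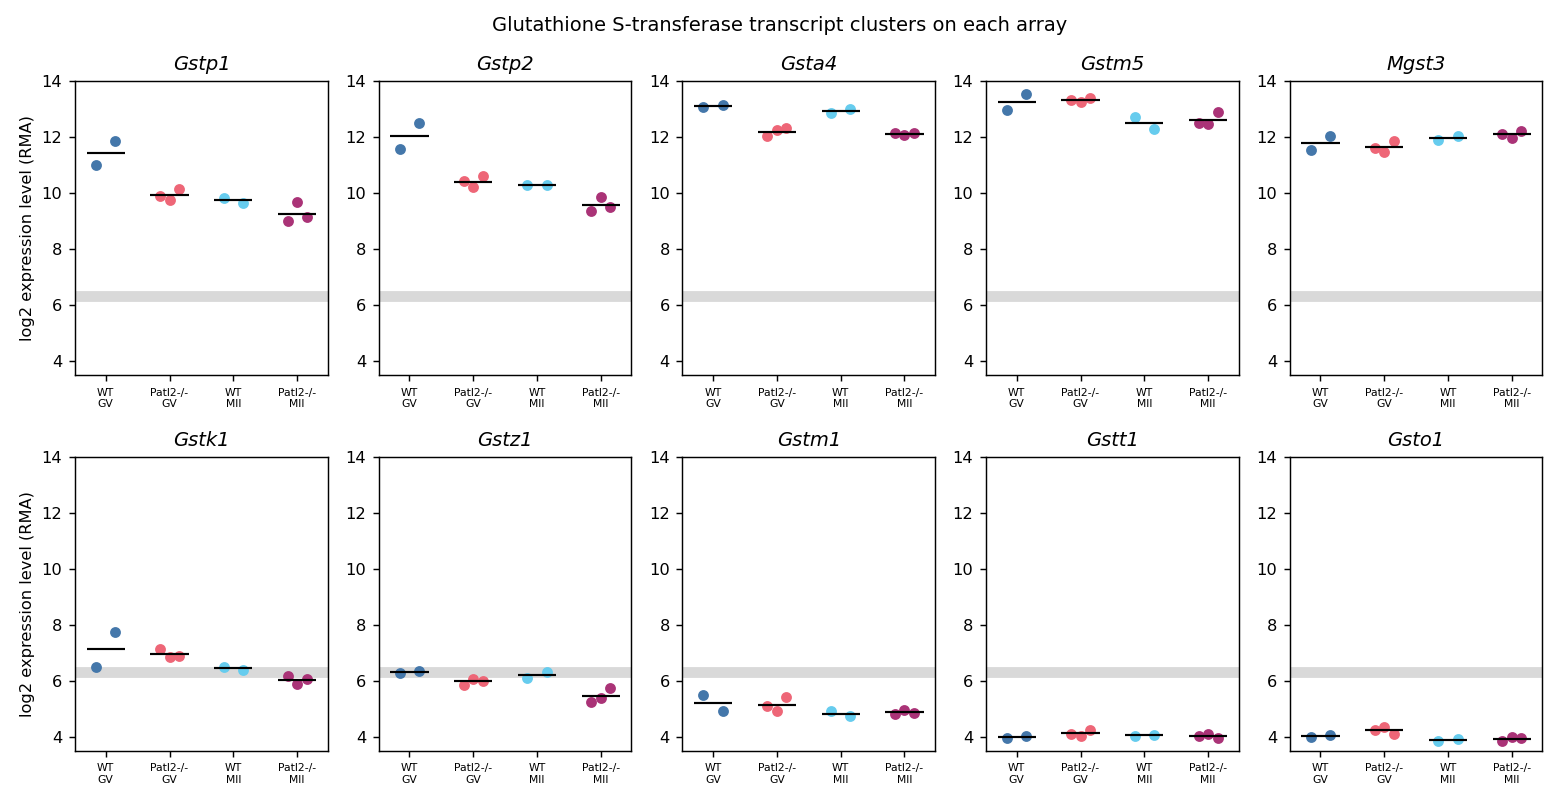
RMA log2 expression level (y axis) of each of the 10 transferase clusters on the 10 arrays, by genotype and stage (x axis); points are arrays, black lines group means (n = 2 for WT, n = 3 for Patl2-/-), and the grey band spans 6.14 to 6.46, the 90th percentiles of the negative control probes. Gstp1 and Gstp2 are highest on both WT GV arrays, Gsta4 is higher on the 4 WT than on the 6 Patl2-/- arrays, and Gstm1, Gstt1 and Gsto1 lie below the band throughout.

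Differences between groups were tested with limma across all 65956 clusters, and a cluster was called changed at a Benjamini-Hochberg adjusted p under 0.05. Between genotypes at GV, 1 of 10 members was called lower in Patl2-/- oocytes (Gsta4), where 0.091% of all clusters were called lower and 0.0303% higher. At MII the same single member was called lower, against 0.462% of all clusters. Averaged over both stages, 4 members were called lower (Gstp1, Gstp2, Gsta4 and Gstz1) and none higher, against 1.11% and 0.776% of all clusters. During maturation from GV to MII, 2 members were called lower in WT (Gstp1 and Gstp2), against 5.19% of all clusters, and 3 in Patl2-/- oocytes (Gstm5, Gstz1 and Gsto1), against 7.14%. No member was called higher at MII in either genotype, against 1.96% of all clusters in WT and 3.37% in Patl2-/- oocytes. Among the 9204 clusters with a mean level of at least 8, as Gstp1, Gstp2, Gsta4, Gstm5 and Mgst3 have, these shares were larger. There 0.261% were called lower in Patl2-/- oocytes at GV, 1.93% at MII and 4.69% in the average. During maturation 20.5% were called lower in WT and 25.4% in Patl2-/- oocytes, and 8.67% and 15.2% were called higher. The genotype difference was called different between stages for 0 of 65956 clusters by limma, with 3952 clusters at an unadjusted p under 0.05. The median difference of the 10 members was -0.15 at GV and -0.22 at MII between genotypes, and -0.28 in WT and -0.41 in Patl2-/- maturation, where the medians of all clusters were 0.02, -0.02, 0.02 and -0.01.

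**Figure D2:**
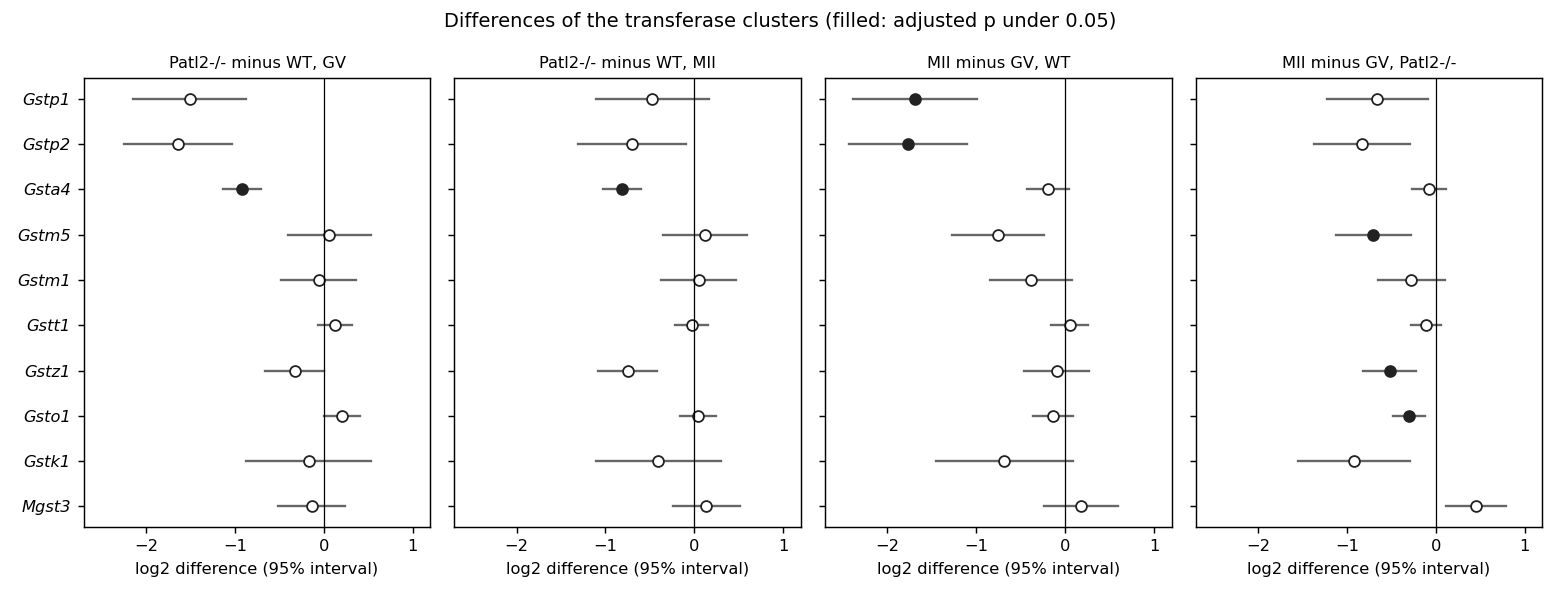
Log2 difference (x axis) of each transferase cluster (y axis) in 4 comparisons, with its 95% interval from limma; filled points have an adjusted p under 0.05. At GV Gstp1 and Gstp2 have the lowest estimates and the wider intervals, while the narrower intervals of Gsta4 lie below 0 at both stages.

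The pi transferases had the largest differences of the members between genotypes at GV and between stages in WT. Their levels at GV were lower without Patl2, and in WT they were lower at MII than at GV. Pi class enzymes are cytosolic transferases that are also known to bind and restrain the stress kinase JNK. Gstp1 measured 11.00 and 11.86 on the WT GV arrays and 9.89, 9.74 and 10.13 on the Patl2-/- GV arrays. At MII it measured 9.82 and 9.66 in WT and 8.99, 9.66 and 9.14 in Patl2-/- oocytes. Both WT GV arrays stood above all the others, and at MII the genotypes overlapped. The WT GV arrays lay 0.86 apart for Gstp1, the SD of that group being 0.61 (n = 2) against 0.19 (n = 3) in Patl2-/- GV oocytes.

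Gstp2 measured 11.59 and 12.50 in WT GV and 10.42, 10.21 and 10.59 in Patl2-/- GV oocytes. At MII it measured 10.29 and 10.27 in WT and 9.37, 9.87 and 9.49 in Patl2-/- oocytes. For this cluster the genotypes did not overlap at either stage. At GV, 4 members lay lower in Patl2-/- oocytes with no overlap between genotypes and 2 lay higher, where 9.17% of all clusters were separated in the lower and 11.8% in the higher direction. The 2 that lay higher, Gstt1 and Gsto1, were below background on every array. At MII, 4 members lay lower and 0 higher without overlap, against 16.2% and 11.7% of all clusters.

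At GV the Patl2-/- mean was lower by 2.84-fold for Gstp1 (log2 difference -1.51, SE 0.28, 95% interval -2.14 to -0.87) and by 3.11-fold for Gstp2 (-1.64, SE 0.26, interval -2.24 to -1.03). Neither was called over all clusters (limma adjusted p = 0.104 and 0.0729). With only clusters at a mean level of at least 6 both passed (limma adjusted p = 0.0453 and 0.0338), as they did at a mean level of at least 8. At an unadjusted limma p under 0.05 with a 2-fold change, both were lower and no other member passed. By these limits 0.514% of all clusters were lower and 0.211% higher. The limits are those of the study, but its p came from another test, so these shares are not the study's. At MII the differences were -0.47 for Gstp1 (interval -1.11 to 0.16, limma adjusted p = 0.562) and -0.70 for Gstp2 (interval -1.31 to -0.10, adjusted p = 0.319). Averaged over both stages both were called lower, Gstp2 with a difference of -1.17 (SE 0.19, adjusted p = 0.0241) and Gstp1 with -0.99 (SE 0.19), the latter at an adjusted p that rounds to 0.05 and lay just under the threshold. With any 1 array left out, Gstp1 was called in this average in 1 of 10 limma fits (adjusted p up to 0.164) and Gstp2 in 5 of 10 (adjusted p up to 0.0910), with differences of -1.20 to -0.78 and -1.40 to -0.94. The Gstp1 call held only without WT GV replicate 1 and was also lost with the arrays quantile-normalised once more (adjusted p = 0.0502), and that of Gstp2 was lost without either WT MII array, without Patl2-/- GV replicate 1 and without replicate 1 or 3 of Patl2-/- MII. Granulosa and cumulus marker signal at GV was 10.58 on WT replicate 2, which had the highest pi levels, and 11.91 on WT replicate 1, with the Patl2-/- arrays between them, and its part in these differences was not tested.

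During maturation of WT oocytes Gstp1 fell by 1.69 (SE 0.30, 3.23-fold, limma adjusted p = 0.0132) and Gstp2 fell by 1.76 (SE 0.29, 3.40-fold, adjusted p = 0.00885), with no overlap between stages. In WT, 6 members lay lower and 1 higher at MII without overlap, against 20.1% and 25.1% of all clusters, and in Patl2-/- oocytes 6 lay lower and 1 higher, against 16.1% and 10.3%. These counts include clusters below background on every array. In WT they were Gstm1 and Gsto1 among the lower and Gstt1 as the higher, and in Patl2-/- oocytes Gsto1 among the lower. The pi differences ranged from -2.12 to -1.26 and from -2.22 to -1.31 with any 1 array left out. The call of Gstp1 was lost without WT GV replicate 2 or either WT MII array, and that of Gstp2 without either WT MII array (limma adjusted p up to 0.0772 and 0.0612). With the 4 WT arrays alone in the fit neither was called (limma adjusted p = 0.172 and 0.174). Granulosa and cumulus marker signal was also lower on both WT MII than on both WT GV arrays (10.39 and 10.42 against 10.58 and 11.91), and its part was not tested. In pools of oocytes, less RNA of a gene in each oocyte cannot be told apart from fewer oocytes that hold it, here and in every comparison. As the levels are shares of a fixed RNA input, a change in the total RNA of the oocytes cannot be told apart either. In Patl2-/- oocytes, which began lower, the differences were -0.66 for Gstp1 (limma adjusted p = 0.155) and -0.83 for Gstp2 (adjusted p = 0.0643), again with no overlap. The Gstp2 difference was called when the test was limited to clusters at a mean level of at least 6 or 8 (limma adjusted p = 0.0215 and 0.0171) or to the arrays compared (adjusted p = 0.0374). The genotype difference was smaller at MII than at GV by 1.03 for Gstp1 (95% interval 0.14 to 1.93, limma adjusted p = 0.796) and by 0.93 for Gstp2 (interval 0.08 to 1.79, adjusted p = 0.815), and neither was called. The fall in WT and the genotype difference at GV share the same 2 WT GV arrays. Without WT GV replicate 2, the higher of them, the GV genotype difference was -1.08 for Gstp1 and -1.18 for Gstp2, and without replicate 1 it was -1.94 and -2.10. Each of these fits leaves 1 WT GV array.

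A separate cluster annotated to Gstp-ps alone measured 10.55 and 11.52 in WT GV, 9.67, 9.32 and 9.54 in Patl2-/- GV, 9.34 and 9.31 in WT MII, and 8.62, 9.09 and 8.90 in Patl2-/- MII oocytes. Its log2 differences were -1.53 between genotypes at GV (limma adjusted p = 0.0891) and -1.71 between stages in WT (adjusted p = 0.0103). Probe sequences were not used here, so RNA of these near-identical loci that binds the probes of another cannot be told apart, and the 3 clusters are not 3 independent measurements. Gstp3, the remaining pi gene with a cluster, lay between 3.92 and 4.12, below background on every array. Among 5217 clusters annotated to 1 gene with a mean level of at least 8, those with a pattern most like the mean of Gstp1 and Gstp2 over the 10 arrays were Gstp-ps (Pearson r = 0.992), the mitochondrial ribosomal protein gene Mrpl39 (r = 0.981), the isocitrate dehydrogenase subunit gene Idh3g (r = 0.977), Zfp511 (r = 0.974) and Mapk1ip1 (r = 0.966). These r values are over 10 arrays in 4 groups, and they were the highest of a search. The 10 members were left out of the search, Gstp1 and Gstp2 having an r of 0.994 with each other. For Gstp2 alone, the closest of the clusters searched were Gstp-ps (r = 0.992), Mrpl39 (r = 0.985) and Zfp511 (r = 0.978). Mrpl39 group means were 12.56 in WT GV, 11.42 in Patl2-/- GV, 11.21 in WT MII and 10.43 in Patl2-/- MII oocytes.

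Gsta4 was the only member called lower in Patl2-/- oocytes at each stage. It encodes an alpha class enzyme known for its high activity with 4-hydroxynonenal, an aldehyde formed in lipid peroxidation. Gsta4 measured 13.08 and 13.16 in WT GV and 12.03, 12.25 and 12.31 in Patl2-/- GV oocytes. At MII it measured 12.87 and 12.98 in WT and 12.15, 12.08 and 12.13 in Patl2-/- oocytes. All 4 WT arrays stood above all 6 Patl2-/- arrays. The lowest WT array and the highest Patl2-/- array lay 0.56 apart, whereas the SD within groups was 0.04 to 0.14.

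The log2 difference was -0.92 at GV (SE 0.09, 95% interval -1.13 to -0.71, 1.89-fold, limma adjusted p = 0.0260) and -0.81 at MII (SE 0.09, interval -1.02 to -0.60, 1.75-fold, adjusted p = 0.0179). Averaged over both stages it was -0.87 (SE 0.07, limma adjusted p = 0.00254). It did not reach the 2-fold threshold of the study. Beside these differences, the spiked hybridisation controls were higher in Patl2-/- than in WT samples by 0.50 at GV and 0.27 at MII, and granulosa and cumulus marker signal at MII was higher on all Patl2-/- arrays (10.60 to 11.62 against 10.39 and 10.42). Cd68 was also lower in Patl2-/- oocytes at both stages (group means 7.15 against 6.45 at GV and 7.35 against 6.59 at MII), and Zp3 was higher at MII. Their part was not tested. With only the arrays of the stage compared, neither the GV nor the MII difference was called (limma adjusted p = 0.304 and 0.0940). The average was called in all 10 limma fits with 1 array left out, with differences of -0.89 to -0.83 and adjusted p of 0.00853 to 0.0172. The GV call held in 1 of these 10 fits, that without Patl2-/- MII replicate 3 (adjusted p 0.0479 to 0.103, differences -0.98 to -0.84). The MII call held in 6 of 10 and was lost without either WT MII array or without Patl2-/- MII replicate 2 or 3 (adjusted p up to 0.0948, differences -0.87 to -0.75). The genotype differences at the stages differed by 0.11 (interval -0.19 to 0.41, limma adjusted p = 0.927).

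Between stages Gsta4 differed by -0.19 in WT (interval -0.42 to 0.04, limma adjusted p = 0.392) and by -0.08 in Patl2-/- oocytes (interval -0.27 to 0.11, adjusted p = 0.648), and both differences turned positive when the arrays were quantile-normalised once more, to 0.20 (adjusted p = 0.416) and to 0.38, which was then called (adjusted p = 0.0380). The 95% intervals of maturation in WT, -2.43 to -1.10 for Gstp2 and -0.42 to 0.04 for Gsta4, did not overlap, and the difference between clusters was not tested.

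The alpha relatives Gsta2 and Gsta1 moved with stage and gave values close together in the genotypes. Gsta2 measured 7.98 and 7.92 in WT GV, 8.03, 8.01 and 7.88 in Patl2-/- GV, 6.91 and 7.03 in WT MII and 7.21, 6.90 and 6.95 in Patl2-/- MII oocytes. It fell during maturation (-0.98 in WT and -0.95 in Patl2-/- oocytes, limma adjusted p = 0.00172 and 0.000525). The cluster annotated to Gsta1 and Gm3776 together fell by 0.94 in both genotypes (adjusted p = 0.00545 and 0.00133). Since probe sequences were not used, RNA of one alpha locus on the probes of another cannot be told apart, and these clusters may not be independent measurements.

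Gstm5, a mu class cytosolic transferase, gave overlapping levels in the genotypes and lower values at MII than at GV. It measured 12.98 and 13.54 in WT GV and 13.32, 13.24 and 13.41 in Patl2-/- GV oocytes. At MII it measured 12.72 and 12.29 in WT and 12.51, 12.47 and 12.89 in Patl2-/- oocytes. The genotypes overlapped at both stages, and the stages did not overlap in either genotype. The genotype difference was 0.06 at GV (95% interval -0.41 to 0.53) and 0.12 at MII (interval -0.35 to 0.59).

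The stage difference of Gstm5 was -0.76 in WT (SE 0.22, limma adjusted p = 0.0976) and -0.70 in Patl2-/- oocytes (SE 0.18, adjusted p = 0.0478), called in the latter alone, and the difference between genotypes in this change was 0.05 (interval -0.61 to 0.72). The Patl2-/- call was lost with the arrays quantile-normalised once more (difference -0.33, adjusted p = 0.289) and with cyclic loess (adjusted p = 0.0522), and it held in 3 of 10 limma fits with 1 array left out, those without either WT GV array or without Patl2-/- MII replicate 3. The WT difference passed when only clusters with a mean level of at least 6 were tested (adjusted p = 0.0372). Averaged over both stages, the genotype interval of Gstm5 (-0.24 to 0.42) did not overlap that of Gsta4 (-1.02 to -0.72), and the difference between clusters was not tested. The other mu member, Gstm1, abundant in liver, lay between 4.73 and 5.47, below background on every array, and was called in no comparison.

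Mgst3 encodes a membrane-bound enzyme of the microsomal family with transferase and peroxidase activity. It measured 11.52 and 12.03 in WT GV and 11.60, 11.48 and 11.84 in Patl2-/- GV oocytes, and 11.90 and 12.02 in WT and 12.10, 11.97 and 12.21 in Patl2-/- MII oocytes. The genotypes overlapped at both stages, with differences of -0.14 at GV (95% interval -0.52 to 0.24) and 0.13 at MII (interval -0.25 to 0.51). Between stages it differed by 0.18 in WT (interval -0.23 to 0.60) and by 0.45 in Patl2-/- oocytes (interval 0.11 to 0.79, limma adjusted p = 0.103), with no overlap in the latter. Mgst3 thus had the highest Patl2-/- stage difference of the 10 members, and it was not called. It passed, as 0.76 in WT and 0.92 in Patl2-/- oocytes, when the arrays were quantile-normalised once more (adjusted p = 0.0168 and 0.00184), and the Patl2-/- difference also passed, unchanged in size, among clusters at a mean level of at least 6 or 8 (limma adjusted p = 0.0468 and 0.0385).

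Gstz1, the zeta enzyme that isomerises maleylacetoacetate in tyrosine breakdown, lay at the edge of background. It measured 6.26 and 6.33 in WT GV, 5.84, 6.07 and 6.0 in Patl2-/- GV, 6.11 and 6.30 in WT MII and 5.25, 5.37 and 5.73 in Patl2-/- MII oocytes, and only 1 WT array at each stage lay above the 90th percentile of its negative controls. All Patl2-/- arrays lay below all WT arrays of their stage. Averaged over the stages it was called lower by 0.54 (SE 0.10, limma adjusted p = 0.0439), with -0.33 at GV (adjusted p = 0.550) and -0.75 at MII (adjusted p = 0.0663), which passed among clusters annotated to 1 gene (adjusted p = 0.0413). That call was lost with median centring (adjusted p = 0.0536) and held in 1 of 10 limma fits with 1 array left out, that without Patl2-/- MII replicate 3 (adjusted p 0.0263 to 0.129). Between stages it was called lower in Patl2-/- oocytes by 0.52 (adjusted p = 0.0389), a call lost with quantile normalisation once more, cyclic loess and median centring and held in 1 of 10 fits, that without Patl2-/- MII replicate 3. In WT the stage difference was -0.09, and 0.13 with the arrays quantile-normalised once more.

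Gstk1, the kappa enzyme of mitochondria and peroxisomes, measured 6.50 and 7.74 in WT GV, 7.13, 6.85 and 6.87 in Patl2-/- GV, 6.50 and 6.37 in WT MII and 6.15, 5.87 and 6.06 in Patl2-/- MII oocytes. The WT GV arrays enclosed all 3 Patl2-/- GV arrays. Its values were lower at MII than at GV in Patl2-/- oocytes without overlap (difference -0.92, SE 0.27, limma adjusted p = 0.0759), and the difference in WT was -0.68 (adjusted p = 0.346). All 3 Patl2-/- MII arrays lay below background, so the level there is only bounded and Gstk1 was at least 1.51-fold higher at GV than at MII, taking each MII array at the 90th percentile of its negative controls. The Patl2-/- difference was called among clusters at a mean level of at least 6 (limma adjusted p = 0.0251), with only the arrays compared (adjusted p = 0.00846) and by the methods' test after Benjamini-Hochberg adjustment (adjusted p = 0.0491). Without WT GV replicate 1, which leaves 1 WT GV array, the WT difference was -1.30. Between genotypes at GV the difference was -0.79 without WT GV replicate 1 and 0.45 without replicate 2, so the 2 WT arrays gave opposite directions.

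Gsto1, the omega enzyme that reduces dehydroascorbate, lay between 3.83 and 4.34, and Gstt1, the theta enzyme that acts on small halogenated compounds, between 3.94 and 4.24. Both lay below background on every array. The Patl2-/- stage difference of Gsto1 was called (-0.30, SE 0.08, limma adjusted p = 0.0478) although no array of either group rose above background, and the call was lost under each of quantile normalisation once more, cyclic loess and median centring and in 9 of 10 fits with 1 array left out. No fold is given for it. Gstt1 was called in no comparison.

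Of 20 further genes of the family, 17 had a cluster of their own, and none was called between genotypes at either stage or in their average. Their genotype differences spanned -0.41 to 0.28 at GV, where the 10 members spanned -1.64 to 0.21. The corresponding MII spans were -0.26 to 0.38 and -0.81 to 0.13. Of these 17, Gsta2 alone lay above background on all arrays, and differences near background are compressed. The 10 members were also chosen with earlier results of these data known. The spans of the members and of the further genes are therefore not an even comparison. Gstm2, a mu transferase named here after its values were seen, differed by -1.36 in WT and -1.07 in Patl2-/- oocytes between stages with wide intervals (-2.91 to 0.19 and -2.34 to 0.20) and was not called. The largest stage difference of the family was that of Gstt2, a theta transferase, which gave 7.31 and 7.96 in WT GV and 7.74, 6.80 and 7.15 in Patl2-/- GV oocytes and between 4.55 and 4.93 on the 5 MII arrays, all below background. It was at least 2.53-fold higher at GV than at MII in WT and at least 1.83-fold higher in Patl2-/- oocytes, taking for each MII array its 90th percentile of the negative controls in place of the lower measured signal (limma adjusted p = 0.000798 and 0.000662). Gstt2 and Gsta2 kept these calls in all 10 fits with 1 array left out.

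**Figure D3:**
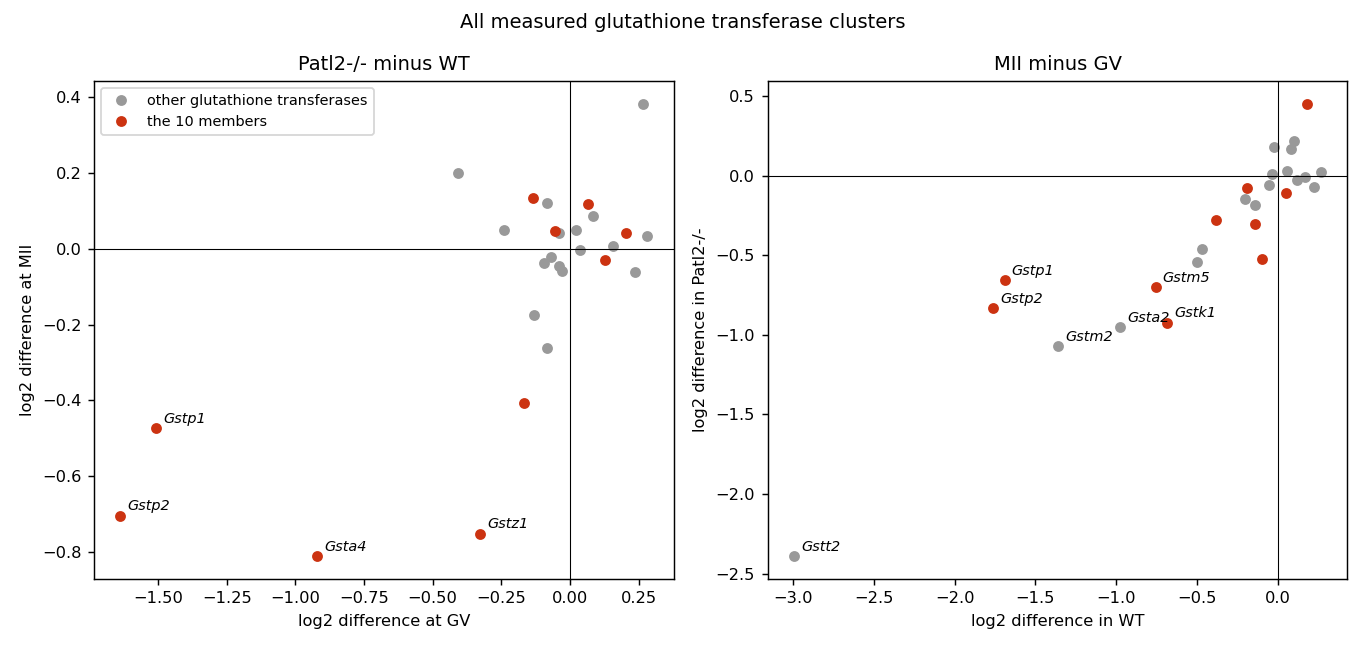
Log2 differences of the 10 members (red) and of 17 other glutathione transferase clusters (grey), each point 1 cluster; left, Patl2-/- minus WT at GV (x axis) against MII (y axis); right, MII minus GV in WT (x axis) against Patl2-/- (y axis), with clusters beyond 0.6 on either axis named. Both axes of a panel come from different arrays. Between genotypes Gstp1, Gstp2, Gsta4 and Gstz1 lie apart from the rest in the lower left, and between stages Gstt2 lies farthest down. The members were chosen with earlier results of these data known, and of the grey clusters only Gsta2 lay above background on all arrays.

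In the glutathione system around the transferases, the genes called between genotypes were Slc7a11, Chac2 and Nqo1. Of 16 measured genes of glutathione synthesis, supply and turnover (of 18 listed), Slc7a11 was called higher and Chac2 lower in Patl2-/- oocytes averaged over the stages, where 1.89% of all clusters were called in either direction, and none was called at GV or at MII alone. Slc7a11 encodes the cystine carrier subunit of system xc-, which brings in the cystine from which glutathione is made. Its group means were 13.44 in WT and 13.93 in Patl2-/- GV, and 13.57 in WT and 13.92 in Patl2-/- MII oocytes (difference 0.42, SE 0.05, limma adjusted p = 0.0133), and the call held in all 10 fits with 1 array left out. Chac2 encodes a cyclotransferase that degrades glutathione, and its means were 6.79 and 6.14 at GV and 6.85 and 5.91 at MII (difference -0.79, SE 0.15, adjusted p = 0.0415), above background on 4 arrays. Its call held in 2 of 10 fits, those without WT GV replicate 1 or Patl2-/- MII replicate 2. The median difference of the list in this average was -0.09, beside 0.00 for all clusters. Slc3a2, the partner subunit of the carrier, rose during Patl2-/- maturation by 0.78 (limma adjusted p = 0.0176), a call lost in 5 of 10 fits, without Patl2-/- GV replicate 1, Patl2-/- GV replicate 2 or any Patl2-/- MII array.

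Of 15 measured genes of glutathione and thioredoxin reduction and NADPH supply (of 18 listed), none was called between genotypes. Between stages Glrx5, a mitochondrial glutaredoxin of iron-sulphur cluster assembly, fell in both genotypes (log2 difference -3.24 in WT and -3.68 in Patl2-/- oocytes, limma adjusted p = 0.000264 and 4.55e-05), the largest called changes in these lists. Glrx, the cytosolic glutaredoxin, rose by 1.05 in Patl2-/- oocytes (adjusted p = 0.00132). Txnrd3, a thioredoxin-glutathione reductase, rose by 1.04 in WT (adjusted p = 0.0261), a call lost without WT GV replicate 1 or either WT MII array. Pgd of the pentose phosphate pathway rose by 0.42 and 0.43 in WT and Patl2-/- oocytes near background, the WT call held in 1 of 10 fits, that without Patl2-/- GV replicate 1, and was lost with median centring. Txn2, the mitochondrial thioredoxin, rose by 0.37 in Patl2-/- oocytes (adjusted p = 0.0422), a call held in 3 of 10 fits, those without either WT MII array or Patl2-/- GV replicate 3. The list thus gave 1 gene lower and 2 higher in WT, and 1 lower and 3 higher in Patl2-/- maturation. Of all clusters, 5.19% and 7.14% were called lower and 1.96% and 3.37% higher. Of those at a mean level of at least 8, 20.5% and 25.4% were called lower and 8.67% and 15.2% higher.

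Of 16 measured genes of peroxide and superoxide removal (of 19 listed), none was called between genotypes, and during maturation 3 were lower in WT and 5 lower and 1 higher in Patl2-/- oocytes. The shares of all clusters called lower were 5.19% and 7.14%, and of those at a mean level of at least 8 they were 20.5% and 25.4%. Prdx4, the peroxiredoxin of the endoplasmic reticulum, fell in both genotypes (-2.41 in WT and -2.81 in Patl2-/- oocytes, limma adjusted p = 0.00283 and 0.000345). In Patl2-/- oocytes it lay below background at MII and was at least 4.31-fold higher at GV. Gpx1, the cytosolic glutathione peroxidase, fell by 1.60 in WT (adjusted p = 0.000736), where its difference in Patl2-/- oocytes was -0.48 (adjusted p = 0.0564), and the difference between genotypes in this change, 1.12, was not called (adjusted p = 0.458). In Patl2-/- oocytes Prdx3 (-0.85), Prdx2 (-0.78) and Sod1 (-0.61) fell, calls that were lost when the arrays were quantile-normalised once more, and the Prdx3 call was also lost when replicate 1 or 3 of Patl2-/- GV, or replicate 2 or 3 of Patl2-/- MII, was left out. Gpx3, a secreted peroxidase, rose by 0.81 in Patl2-/- oocytes (adjusted p = 0.0300), lost without Patl2-/- GV replicate 1 or 3 or any Patl2-/- MII array. Gpx4 was called lower in both genotypes but lay below background on every array. The median difference of the list was -0.25 in WT and -0.31 in Patl2-/- maturation, beside 0.02 and -0.01 for all clusters.

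Of the 10 NRF2 regulators and targets, all measured and 1 of them above background on every array, Nqo1, a quinone reductase, was called lower in Patl2-/- oocytes at MII by 0.61 (limma adjusted p = 0.0445) and in the average by 0.37 (adjusted p = 0.0474). Nqo1 lay above background on only 1 array, and its MII call held in 0 and its average in 1 of 10 fits with 1 array left out. Its call of 0.50 higher at MII in WT (adjusted p = 0.0330) and both genotype calls were lost with median centring. Mafk, a small MAF partner of NRF2, was called lower in Patl2-/- maturation by 0.35 near background, a call lost under all 3 rescalings. Of 12 measured genes of conjugate export, processing and the glyoxalase route (of 14 listed), none was called between genotypes. Both glyoxalase genes fell during maturation, Glo1 with differences of -1.36 in WT and -1.50 in Patl2-/- oocytes (adjusted p = 0.00862 and 0.00137) and Hagh with -1.34 and -1.59 (adjusted p = 0.0346 and 0.00469). The Glo1 call in WT was lost without WT MII replicate 2, and the Hagh call in WT, which held in 3 of 10 fits, without WT GV replicate 2, either WT MII array, Patl2-/- GV replicate 1 or any Patl2-/- MII array, and also with the arrays quantile-normalised once more. In Patl2-/- oocytes Hagh lay below background at MII, and it was at least 2.42-fold higher at GV. Abcc4, an exporter of conjugates and cyclic nucleotides, rose by 0.83 in Patl2-/- oocytes (adjusted p = 0.0158), lost without Patl2-/- MII replicate 1 or 3. Of 13 measured genes of partner steps (of 14 listed), such as the tyrosine breakdown enzymes around Gstz1 and the JNK kinases, Mapk8, which encodes JNK1, was called alone, higher by 0.45 during Patl2-/- maturation (adjusted p = 0.00572), and it held in all 10 fits. Of all clusters, 0.462% were called lower in Patl2-/- oocytes at MII and 1.11% in the average. During WT and Patl2-/- maturation 5.19% and 7.14% were called lower and 1.96% and 3.37% higher. At a mean level of at least 8 these maturation shares were 20.5% and 25.4% lower and 8.67% and 15.2% higher.

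**Figure D4:**
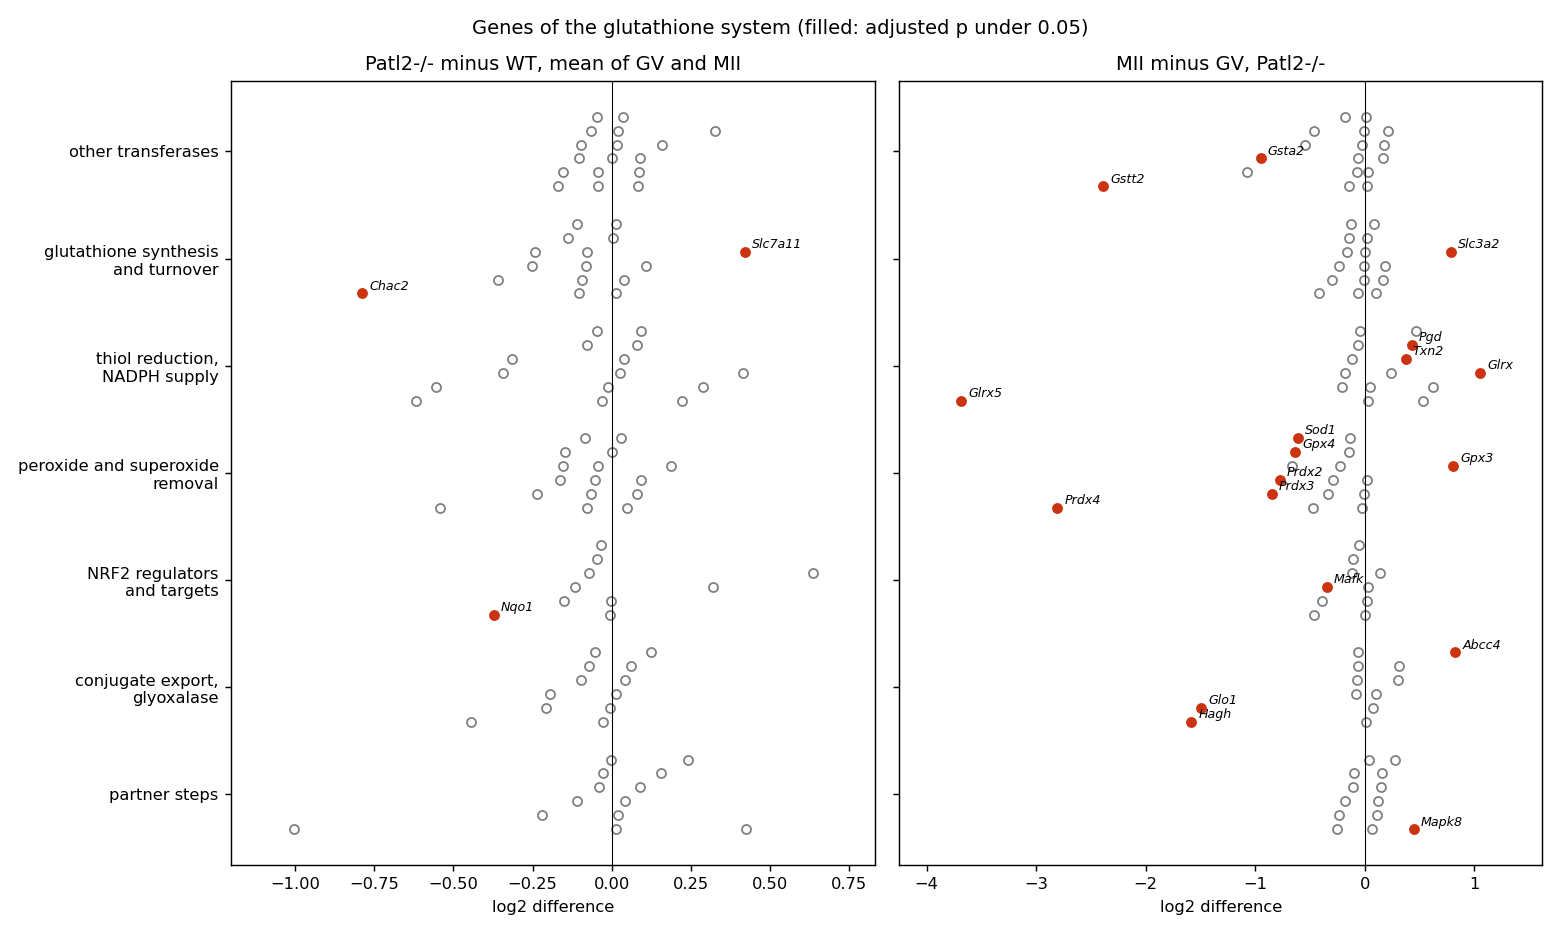
Log2 difference (x axis) of each measured gene of 7 lists of the glutathione system (y axis, points spread vertically for sight); left, Patl2-/- minus WT averaged over GV and MII; right, MII minus GV in Patl2-/- oocytes; filled and named points have an adjusted p under 0.05. Between genotypes Slc7a11 (0.42), Chac2 (-0.79) and Nqo1 (-0.37) are called, and between stages Glrx5 (-3.68), Prdx4 (-2.81) and Gstt2 (-2.39) lie farthest to the left.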

How the data were processed

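RNA of pooled oocytes (250 pg per sample) was labelled with the Affymetrix WT pico kit and hybridised to 10 Clariom D arrays. The authors ran RMA over the arrays with Affymetrix Expression Console (its version is not given in the sources used here), so the deposited values are log2 levels after background correction, quantile normalisation and probe summary. Arrays were grouped by their labels. The genome build and annotation of the array are not given in the sources used here. The 6732 control probes were left out. Of 65956 clusters, 30638 were annotated to 1 gene, 2176 to several and 33142 to none.

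limma 3.58.1 in R 4.3.3 was fitted to all arrays with 1 mean per group (lmFit, contrasts, eBayes, two-sided), with Benjamini-Hochberg adjustment over all clusters. The number of arrays limits the precision, and a fit that leaves out a WT array has only 1 array in that group. The members and gene lists were chosen with earlier results of these data known. All members were named, with, from each list, up to 4 called genes per direction and comparison, the clusters most like the pi clusters, and Gstm2, shown in a plot, was added after its values were seen. Predicted genes were left unnamed, except beside Gsta1, with which one shares a cluster. A listed gene was represented by its 1-gene cluster with the highest mean. The alternatives tried were a block for the replicate number, quantile normalisation once more, cyclic loess, median centring, a mean level of at least 6 or 8, clusters annotated to 1 gene, the mean over all clusters of a member, trend and robust eBayes (statmod 1.5.0), array weights, the arrays of the compared groups alone, the ANOVA of the methods, called the methods' test, and leaving out each array. The pipeline was tested on simulated data. Promoters were aligned with biopython 1.88 in python 3.11.15, and plots were drawn with matplotlib 3.10.9.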

Additional observations from a re-analysis of the deposited data

Results flagged for a closer look

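The hybridisation controls, spiked-in labelled sequences that are not among the tested clusters, set the genotypes apart. Their mean log2 level was higher in Patl2-/- than in WT samples by 0.50 at GV (11.71 to 11.98 against 11.25 to 11.46) and by 0.27 at MII (11.58 to 11.69 against 11.34 to 11.39), with no overlap at either stage. The part of the controls in the member differences between genotypes was not tested.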

How the results depend on the processing

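Among 700 values of members under settings other than leaving out an array, 622 kept their direction and side of the threshold, 48 kept the direction and lost the call, 19 gained a call and 11 reversed. The mean over all clusters of a member could change nothing, since every member had a single cluster. Its values are among the 622 and do not speak for stability. With 1 array left out, these numbers were 494, 66, 9 and 31 of 600. Not every change of 1 member is listed here, such as the average call of Gstp1, lost with array weights (limma adjusted p = 0.0577). Numbers of members called (as reported, 1 at GV, 1 at MII, 4 in the average, 2 in WT and 3 in Patl2-/- maturation) moved, among others, as follows. With the methods' test they were 0, 0, 1, 0 and 1 after Benjamini-Hochberg and 2, 0, 1, 0 and 0 at an unadjusted p under 0.05 and 2-fold. With the arrays of the compared groups alone they were 0 at GV, 0 at MII and 0 in WT maturation. With a mean level of at least 6 or 8 there were 3 at GV. With clusters annotated to 1 gene, which leave out Gstp2, there were 2 at MII and 1 in WT maturation. Trend and robust eBayes gave 2 in the average. In Patl2-/- maturation, cyclic loess gave 0 and median centring 1. Leaving out 1 array gave 0 to 1 at GV, 0 to 1 at MII, 1 to 4 in the average, 0 to 3 in WT and 0 to 4 in Patl2-/- maturation, and 0 to 0 for the difference between stages.

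The following differences, none of them called as reported, reversed. The average of Gstm1 turned to 0.0162 (quantile normalisation once more), 0.00623 (cyclic loess) and 0.0124 (array weights), and that of Mgst3 to 0.0643, 0.00107 and 0.0088. Quantile normalisation once more also turned the stage difference of Gsta4 to 0.20 in WT and 0.38 in Patl2-/- oocytes and that of Gstz1 in WT to 0.13. The cause was not tested. With 1 array left out, the genotype difference at GV ranged from -0.79 to 0.45 for Gstk1, -0.33 to 0.22 for Gstm1, -0.22 to 0.34 for Gstm5 and -0.39 to 0.12 for Mgst3. At MII it ranged from -0.0380 to 0.13 for Gstm1, -0.0985 to 0.34 for Gstm5 and -0.0649 to 0.00792 for Gstt1. In the average it ranged from -0.60 to 0.0235 for Gstk1, -0.14 to 0.13 for Gstm1, -0.0486 to 0.23 for Gstm5 and -0.13 to 0.12 for Mgst3. The WT stage difference ranged from -0.19 to 0.00101 for Gstz1 and -0.0680 to 0.44 for Mgst3. The difference between stages ranged from -0.86 to 0.38 for Gstk1, -0.17 to 0.38 for Gstm1 and -0.23 to 0.33 for Gstm5.

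Same-numbered arrays showed little shared deviation (13 pairs of same-numbered arrays, r -0.16 to 0.29, 3 over 0.1). With so few arrays in a group these r values are not independent, and both WT GV with WT MII pairs gave the same r of 0.03. The check therefore cannot settle whether the replicate numbers pair the samples. With the replicate number as a block, 0 members were called at GV, 0 at MII, 1 in the average and 1 in Patl2-/- maturation. Under this block Gstm5 turned to -0.0243 at GV and Gstm1 to -0.0102 at MII. Signal limits Gstm1, Gstt1 and Gsto1, which lay below background on all arrays, and Gstz1 and Gstk1, which lay near it.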
